A study of Sus scrofa with 50 samples.

Results

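The livers of 10 Korean minipigs (Sus scrofa) were compared with the hearts, kidneys, lungs and spleens of the same animals. The 10 liver libraries, 5 of the ET-type (S0235, S0242, S0276, S0309, S0326) and 5 of the L-type (S0349, S0355, S0377, S0384, S0385), come from a series of 50 mRNA sequencing libraries and were set against 39 libraries of the other tissues. The kidney library of ET-type S0235 was set aside because its 18 lymphocyte marker genes summed to 4473 TPM, against 24.4 to 113 TPM in the other 9 kidneys. The labels used here give no age, sex or treatment, and no meaning for the type names, and each library comes from a different animal within its tissue. Values are TPM (length-scaled transcript abundance, set to the same total in every library), and genes carry the entry names of the Swiss-Prot protein database (ALBU for albumin). A gene was called higher or lower in liver than another tissue where limma gave an adjusted p below 0.05 and a difference of at least 1 in log2(TPM + 1), which is a doubling for well expressed genes and understates the change of low ones.

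The liver makes most of the proteins of blood plasma, clears ammonia as urea, stores and releases glucose, turns cholesterol into bile acids and modifies drugs and other foreign compounds. Most of these tasks fall to the hepatocyte, which makes up the bulk of the organ, and the remaining cells include Kupffer cells (resident macrophages), sinusoidal endothelium, stellate cells and bile duct epithelium. Hepatocytes also use liver forms of many enzymes for which muscle and most other tissues have forms of their own.

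The liver label was checked first. Albumin ranged from 55175 to 174596 TPM (median 115075) in the 10 livers and from 0.0937 to 53.1 TPM in the 39 other libraries. The smallest of its 4 differences, against lung, was 14.52 (SE 0.48, adjusted p = 1.3e-31) in log2(TPM + 1) by limma. Fibrinogen beta and alpha chains (FIBB, FIBA) ranged from 5095 to 25918 TPM (median 13843) and from 2301 to 10955 TPM (median 6659.9), and the other libraries reached 32.3 and 3.36 TPM. For apolipoprotein H (APOH) and apolipoprotein C-III (APOC3), the livers held 6257 to 10190.1 TPM (median 7348) and 3581 to 8464 TPM (median 6177), and the others reached 4.23 and 11.5 TPM. None of the 5 markers overlapped between the livers and the other libraries, and each of the 10 livers was closest to the mean of its own tissue. Pearson correlations between pairs of livers, over log2 values of all tested genes, ran from 0.783 to 0.953 with a median of 0.927. The livers of S0326 and S0309 stood lowest, with mean correlations of 0.857 and 0.892 to the rest. The counts of genes higher or lower than in each tissue, and of genes that differ by type, are also given without these livers. The files hold no read counts, so the depth behind each value is unknown and no counting interval can be given.

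Of 29725 genes averaging 1 TPM or more over the libraries, 1439 (4.84%) were higher in liver than in each of the other 4 tissues and 1531 (5.15%) were lower than in each. Among the 13644 genes with a Swiss-Prot entry, the numbers were 730 (5.35%) and 1086 (7.96%). All 10 livers lay above all 39 other libraries in 410 entries (3%) and below them in 744 (5.45%). In 406 entries (2.98%) called higher, the lowest liver lay above all 39 other libraries, and in 558 (4.09%) called lower the highest liver lay below all of them. Without the livers of S0309 and S0326, an alternative chosen after seeing the data, 1472 genes were higher and 1574 lower than in each tissue. In whole-tissue samples like these, fewer cells of a type and less RNA per cell cannot be told apart.

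Against single tissues, 4735 genes (15.9%) were higher in liver than in heart and 4159 (14%) were lower. Kidney gave 2430 higher (8.17%) and 9156 lower (30.8%), lung 2347 (7.9%) and 14077 (47.4%), and spleen 3521 (11.8%) and 7009 (23.6%). These splits depend on how libraries are scaled, since the median difference over all genes was 0.05 against heart, -0.53 against kidney, -0.94 against lung and -0.27 against spleen. After median-ratio scaling, which sets each library's typical gene level equal, those medians were 0.02, -0.13, -0.13 and 0, and the genes higher and lower than in each tissue numbered 2194 and 1022. Called genes that were higher in liver then made up 50.3% against heart, 39.8% against kidney, 42.0% against lung and 48.5% against spleen, in place of 53.2%, 21.0%, 14.3% and 33.4%. Of the 1439 higher genes 1438 were called again after that scaling, and of the 1531 lower genes 939.

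**Figure D1:**
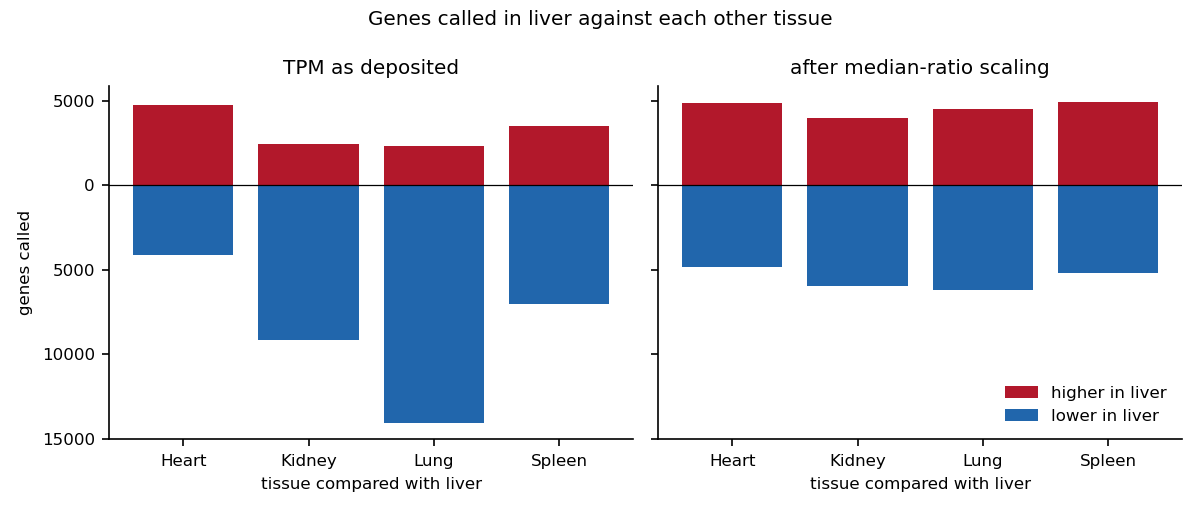
Bars give the number of genes called higher (up) or lower (down) in liver than in each of the 4 other tissues, for TPM as deposited on the left and after median-ratio scaling on the right. With TPM as deposited, the liver has 14077 genes lower than lung and 2347 higher, and after scaling 6209 and 4496.

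The livers had fewer genes at 1 TPM or more than 3 of the other tissues. Their mean was 20099 ± 1103 genes (SD, n = 10; range 17677 to 21370), against 20087 in heart, 25071 in kidney, 27618 in lung and 22555 in spleen. The difference was -4973 genes against kidney (exact two-sided permutation test, adjusted p = 3.25e-05 over 12 comparisons), -7520 against lung (permutation test, adjusted p = 3.25e-05) and -2456 against spleen (permutation test, adjusted p = 0.00931). Against heart it was 11.7 genes, within the spread between livers (permutation test, adjusted p = 0.983). These counts use TPM as deposited and were not repeated after scaling, and depth is unknown. They include transcripts without a Swiss-Prot entry, which made up 16081 of the 29725 genes tested. The 10 highest genes took 28.0% ± 3.60 of liver TPM (SD, n = 10), less than the 43.8% in heart (permutation test, adjusted p = 4.8e-05) and more than the 14.5% in lung (permutation test, adjusted p = 3.25e-05). Kidney with 33.7% and spleen with 26.6% did not differ from liver beyond the spread (permutation tests, adjusted p = 0.18 and 0.742).

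Those shares took the 10 highest genes of each library by itself, so the genes can differ between libraries. By mean TPM over the livers, the 10 highest Swiss-Prot entries included ALBU, APOE, FIBB, the iron carrier transferrin (TRFE) and ferritin light chain (FRIL). The rest were 4 genes of the mitochondrial genome and the summed transcripts matched to LINE-1 retrotransposon ORF2 (LORF2). Ferritin light chain, part of the iron store of cells, was not highest in liver. It had 14312 ± 2393 TPM (SD, n = 10) in liver, 18642 TPM in kidney and 26678 TPM in spleen. LORF2 differed from no other tissue by 1 or more, with 10574 ± 2805 TPM in liver (SD, n = 10).

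Secreted proteins led the genes higher in liver. Entries of the 4 plasma protein lists below, 91 in all, took 25.9% ± 4.18 of liver TPM (SD, n = 10), against means of 0.117% in heart, 0.207% in kidney, 0.646% in lung and 2.66% in spleen. Albumin alone took 11.5% ± 3.34 (SD, n = 10), from 5.52% to 17.5%. Among entries with any Gene Ontology term, an extracellular term was held by 24.9% of those higher in liver, by 17.7% of those lower and by 10.4% of all tested. Peroxisomal terms stood at 4.87%, 0.187% and 0.915%, terms of the endoplasmic reticulum at 18.6%, 9.09% and 9.70%, and mitochondrial terms at 17.1%, 7.97% and 11.3%. Nuclear terms went the other way, with 14.2% of the higher entries, 29.6% of the lower and 36.4% of all. No test was made of these shares.

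By the smallest of their 4 differences, the leading entries whose libraries did not overlap were ALBU, APOH, FIBA, APOC3, a cytochrome P450 of family 3A (CP3AO), secreted phosphoprotein 24 (SPP24), serpin A3-8 (SPA38), apolipoprotein C-II (APOC2), alpha-1-antitrypsin (A1AT) and protein C inhibitor (IPSP). CP3AO, which belongs to the main drug-oxidising family, ranged from 468 to 6515 TPM (median 2224) in liver, and no other library passed 0.934 TPM. Its nearest difference was 10.42 (SE 0.27, adjusted p = 8.37e-36), against spleen, by limma. A1AT, the main inhibitor of neutrophil elastase in plasma, ranged from 1114 to 2162 TPM (median 1824) in liver and from 0 to 1.19 TPM elsewhere. APOC2, the activator of lipoprotein lipase, was at 0 in every heart and lung library and ranged from 948 to 1984 TPM (median 1725) in liver. SPA38 varied most among the 10, from 633 to 12776 TPM (median 5564), with its lowest value in S0326. CP3A entries share long stretches of sequence, so the split of reads between CP3AO, CP3AT and CP3AC is uncertain.

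**Figure D2:**
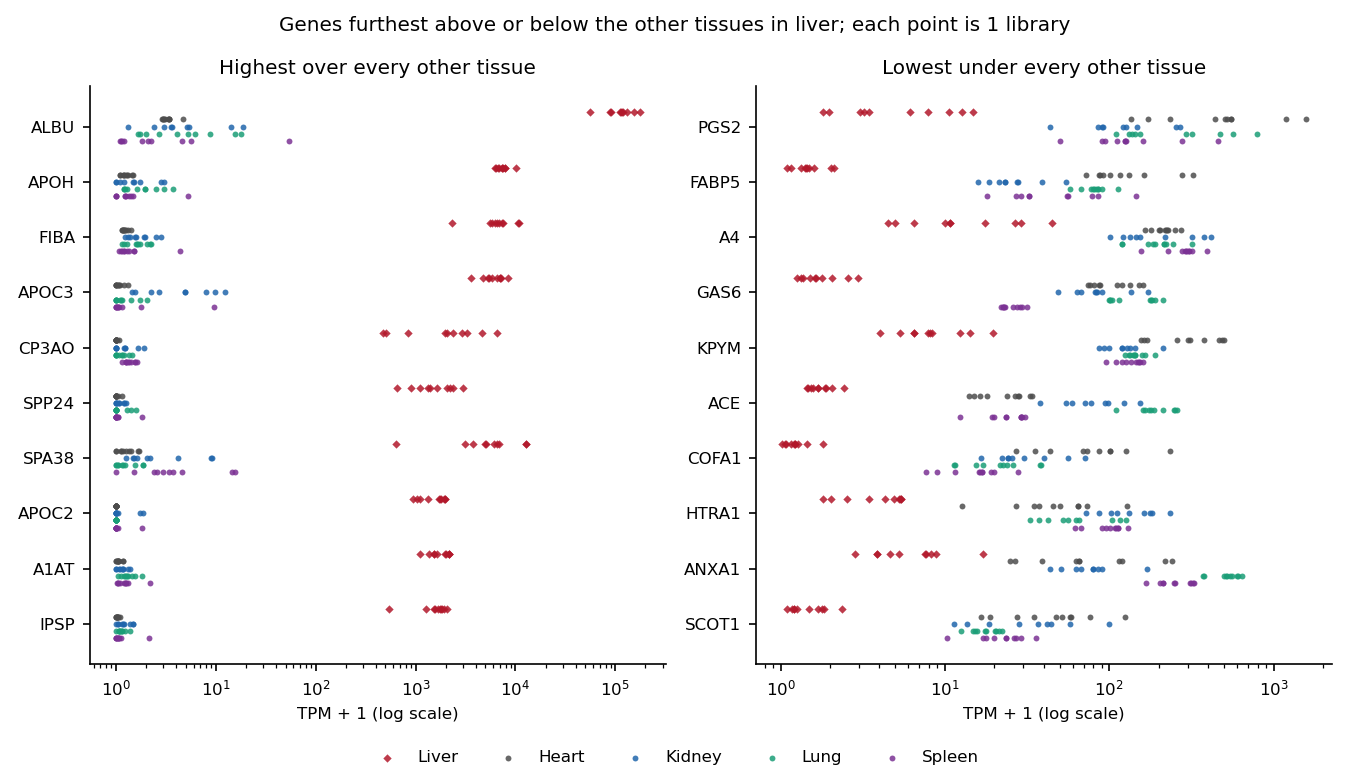
Each point is 1 library (diamonds for liver, circles for the other tissues) and the horizontal axis is TPM + 1 on a log scale, for the 10 entries leading above (left) and the 10 leading below (right) in liver among those whose libraries do not overlap. Every liver point lies to 1 side of all 39 other libraries, as in APOH (lowest liver 6257 TPM, highest other 4.23) and PGS2 (highest liver 13.9 TPM, lowest other 42.9).

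All 23 plasma carriers and protease inhibitors tested were higher in liver than in each other tissue, against 4.84% of all genes, with median differences of 8.85 to 9.80. That share, and 5.15% for genes lower than in each tissue, also stands beside the counts of every list below. Hemopexin (HEMO), which carries free heme, ranged from 2274 to 5142 TPM (median 4608) in liver and reached 10.1 TPM elsewhere. Transthyretin (TTHY) and retinol-binding protein (RET4), partners in the transport of thyroid hormone and vitamin A, ranged from 1901 to 4513 TPM (median 2415) and from 827 to 3299.5 TPM (median 3002) in liver. Haptoglobin (HPT), which binds free hemoglobin, was also present in lung. It ranged from 4433 to 13087 TPM (median 5993) in liver and from 109.7 to 580.1 TPM (median 204) in lung, and the difference was 4.96 (SE 0.32, adjusted p = 1.21e-19) by limma. Alpha-fetoprotein (FETA), the albumin relative of the fetal liver, was still present at 18.8 to 75.3 TPM (median 26.7), and the other libraries stopped at 2.28 TPM. Alpha-2-macroglobulin (A2MG) had the smallest difference of the list, 2.70 (SE 0.30, adjusted p = 2.94e-11), against lung.

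Of 20 genes of apolipoproteins and lipoprotein assembly, 17 were higher in liver than in each tissue and none was lower than in each. Apolipoprotein E (APOE), a ligand of the receptors that clear lipoprotein remnants, ranged from 12039 to 24092 TPM (median 17491) in liver and from 275.99 to 2402 TPM (median 865) in lung, its next tissue. The difference of liver from lung was 4.39 (SE 0.37, adjusted p = 4.12e-15) by limma, and no lung library reached the lowest liver. Apolipoprotein B (APOB), the frame of very low density lipoprotein, ranged from 301 to 967 TPM (median 375), and its loading partner microsomal triglyceride transfer protein (MTP) from 54.8 to 174 TPM (median 97.5). The exceptions were APOM, PLTP and SCRB1. APOM had 73.6 ± 19.5 TPM in liver and 45.8 ± 20.5 TPM in kidney (SD, n = 10 and 9), a difference of 0.76. Phospholipid transfer protein (PLTP) was lower in liver than in spleen, with a difference of -1.81 (SE 0.30, adjusted p = 1.03e-06).

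The clotting and fibrinolysis list had 19 of 21 genes higher in liver than in each tissue. Prothrombin (THRB) ranged from 662 to 1230.4 TPM (median 1035) in liver, clotting factor IX (FA9) from 353 to 835 TPM (median 440.3), factor XII (FA12) from 613 to 2069.7 TPM (median 839) and plasminogen (PLMN) from 795 to 2374 TPM (median 1546). Factor VIII (FA8), whose source in mammals is mostly endothelium, went the other way. Its livers ranged from 0.807 to 6.79 TPM (median 1.41), the means of the other tissues lay between 10.8 TPM in kidney and 28.1 TPM in lung, and it was lower in liver than in each, the nearest difference being -1.77 (SE 0.32, adjusted p = 3.69e-06) by limma. Factor VII (FA7), which starts the tissue factor pathway, reached 14.7 to 32.3 TPM (median 24.8) in lung and 3.15 to 36.6 TPM (median 11.7) in liver, and the difference of -0.92 did not pass the threshold of 1. Antiplasmin (A2AP), carboxypeptidase B2 (CBPB2) and kininogen (KNG1) were the members with a clear kidney signal. A2AP had 205 ± 107 TPM in kidney (SD, n = 9) and 598 ± 143 TPM in liver (SD, n = 10).

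Complement was divided. Of 27 genes, 17 were higher in liver than in each tissue and 1 was lower. The central component C3 (CO3) ranged from 2937 to 5397 TPM (median 3982) in liver and from 356 to 753 TPM (median 502) in lung, with a difference of 2.98 (SE 0.37, adjusted p = 7.39e-10) by limma. Genes of the membrane attack complex followed liver: CO9 had 1173 ± 293 TPM and CO8A 366 ± 107 TPM (SD, n = 10), and no other library passed 82.6 and 0.366 TPM. CO7 of the same complex did not, with 50.4 ± 27.8 TPM in liver and 987 ± 656 TPM in spleen (SD, n = 10 each). The 3 chains of C1q, made by macrophages, were spleen genes: C1QA had 3145 to 5940.2 TPM (median 5128) in spleen and 17 to 173 TPM (median 46.7) in liver, and the groups did not overlap. The proteases that C1q binds, C1R and C1S, were higher in liver than in each tissue, at 1486 ± 342 and 1129.9 ± 412 TPM (SD, n = 10). Complement factor D (CFAD), known as a product of fat cells, was lower in liver than in each tissue, at 13.2 to 109 TPM (median 38.5) against 995 to 2089 TPM (median 1295) in lung, though its call was lost after median-ratio scaling, where its nearest difference was -0.85.

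Of 11 genes of the acute phase and iron regulation, 8 were higher in liver than in each tissue. Serum amyloid P (SAMP) ranged from 390.3 to 1913 TPM (median 877) in liver and reached 0.971 TPM elsewhere. Hepcidin (HEPC), the hormone that closes the iron exporter ferroportin, ranged from 109.6 to 784 TPM (median 233) in liver, and no other library passed 0.442 TPM. Ferroportin itself (S40A1) was shared with spleen, at 63.5 to 342 TPM (median 156) in liver and 155 to 616 TPM (median 413) in spleen. Serum amyloid A2 (SAA2), an acute phase protein, spread from 36 to 2913 TPM (median 379) over the livers, with its highest value in L-type S0355. Lipocalin 2 (NGAL) was not a liver gene here, at 1.58 to 5.34 TPM (median 2.44) against 72.2 to 392 TPM (median 236) in lung.

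Among 19 hormones, receptors and growth factors, 16 were higher in liver than in each tissue. LECT2, a protein secreted by hepatocytes, ranged from 230.5 to 1301 TPM (median 762). Angiotensinogen (ANGT), the precursor of angiotensin, ranged from 300.3 to 769 TPM (median 471) in liver and reached 285 TPM elsewhere. Insulin-like growth factor binding protein 1 (IBP1) ranged from 186 to 774 TPM (median 379.8) and IBP2 from 275.99 to 1203 TPM (median 711). Insulin-like growth factor 2 (IGF2) had 151 ± 61.1 TPM in liver and IGF1 3.22 ± 2.87 TPM (SD, n = 10). IGF1, the main growth factor that growth hormone induces in liver, was higher than in kidney by 1.25, and it was not called against heart, where the difference was 0.36. Bone morphogenetic protein 9 (GDF2) and inhibin beta C (INHBC), both near 0 elsewhere, ranged from 4.38 to 17.3 TPM (median 8.68) and from 2.25 to 39.7 TPM (median 15.8) in liver.

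**Figure D3:**
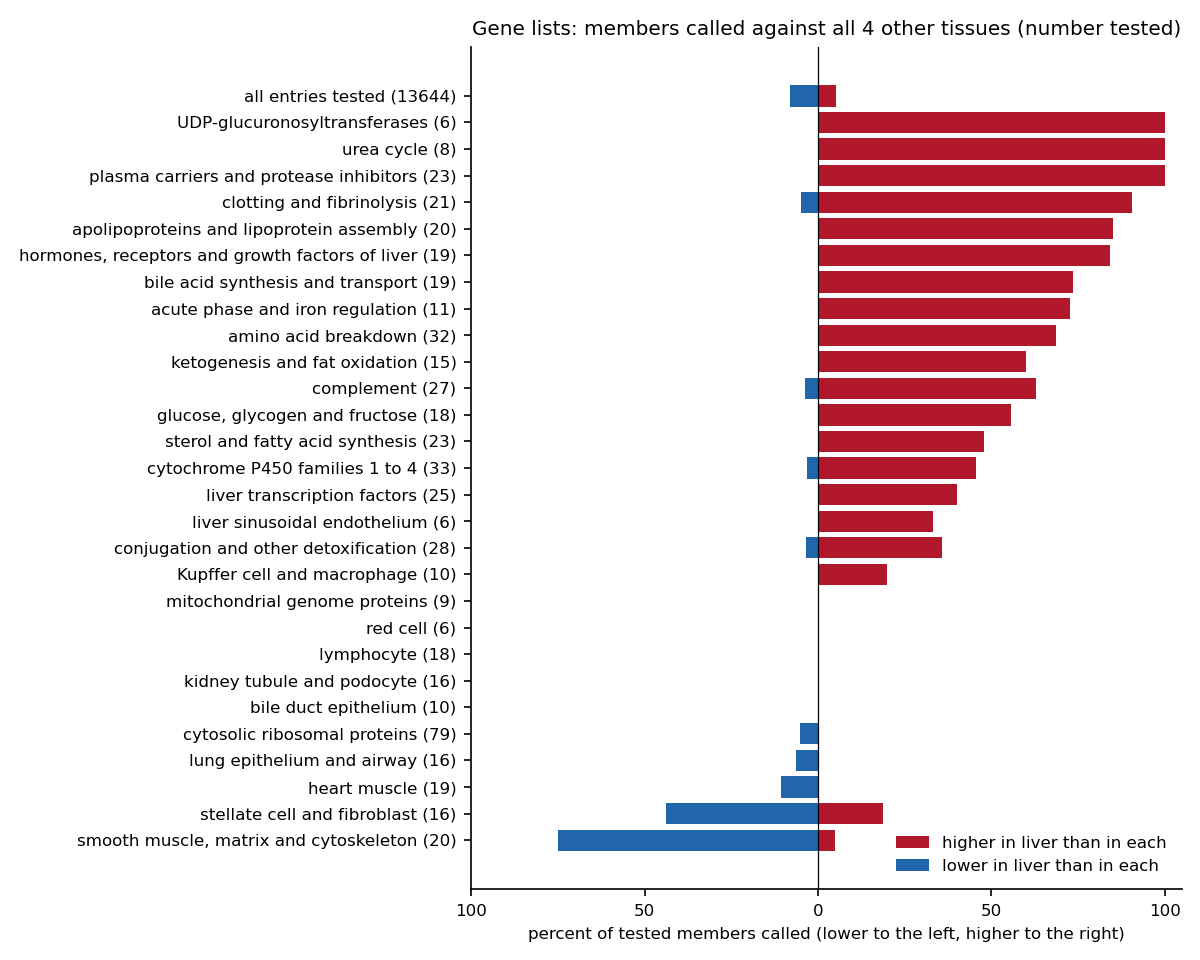
For each gene list, bars give the percentage of its tested members called higher or lower in liver than in each other tissue. All 23 plasma carriers, all 8 genes of the urea cycle list and all 6 UDP-glucuronosyltransferases are higher. Of 20 genes of smooth muscle, matrix and cytoskeleton, 15 are lower.

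All 8 genes of the urea cycle list, which also holds the liver glutaminase (GLSL), were higher in liver than in each tissue. Carbamoyl phosphate synthase (CPSM), which fixes ammonia, ranged from 143 to 1613 TPM (median 522) in liver and stayed at or under 0.51 TPM elsewhere, and the next enzyme, ornithine transcarbamylase (OTC), ranged from 24.6 to 223 TPM (median 98.8) against at most 0.168 TPM. Argininosuccinate synthase (ASSY), also used by kidney to make arginine, ranged from 1012 to 10365 TPM (median 2625) in liver and from 214 to 2014 TPM (median 706) in kidney. Argininosuccinate lyase (ARLY) had the smallest difference, 1.17 (SE 0.19, adjusted p = 4.35e-07), against kidney. Liver arginase (ARGI1) ranged from 308 to 2559 TPM (median 631) in liver and reached 177 TPM in the other libraries. It was 0.362 TPM in kidney.

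Amino acid breakdown was shared with kidney. Of 32 genes, 31 were higher in liver than in heart and 30 than in lung or spleen, but 23 than in kidney, and 22 than in each. Over all genes the shares were 15.9% for heart, 7.9% for lung, 11.8% for spleen, 8.17% for kidney and 4.84% for each. Tyrosine aminotransferase (ATTY) ranged from 167 to 3126 TPM (median 601) and serine dehydratase (SDHL), which feeds serine into glucose synthesis, from 38.2 to 635 TPM (median 115). Neither passed 1 TPM in any other library. Methionine adenosyltransferase 1 (METK1) ranged from 378 to 1621 TPM (median 814), and glycine N-methyltransferase (GNMT), which uses its product, from 623 to 2338 TPM (median 895). Phenylalanine hydroxylase (PH4H) had 1163 ± 1038 TPM in liver (SD, n = 10) and 110.4 ± 86.9 TPM in kidney (SD, n = 9). At the other end, aminoadipate aminotransferase (AADAT), an enzyme of lysine and tryptophan breakdown, was close to absent in liver, at 0.0399 to 0.347 TPM (median 0.141), and reached 360.2 to 2423 TPM (median 1059.8) in kidney. The difference of -9.70 (SE 0.20, adjusted p = 8.56e-40) by limma was the largest in favour of kidney in this list. ACMSD, a branch point of tryptophan breakdown, was also lower in liver than in kidney, with a difference of -3.62 (SE 0.49, adjusted p = 1.07e-08), and its livers ran from 0.36 to 109 TPM (median 3.3).

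Of 19 genes of bile acid synthesis and transport, 14 were higher in liver than in each tissue and none was lower than in each. The bile salt export pump (ABCBB) ranged from 98.6 to 221 TPM (median 160.3), the uptake carrier NTCP from 56.2 to 184 TPM (median 97.1) and the organic anion carrier SO1B3 from 86.3 to 499 TPM (median 238). No other library passed 0.13, 0.305 and 0.154 TPM for the 3 carriers. Sterol 27-hydroxylase (CP27A) ranged from 831 to 1890.0 TPM (median 1554) in liver. Cholesterol 7-alpha-hydroxylase (CP7A1), the first and rate-limiting step, was not above lung: it ranged from 7.32 to 251 TPM (median 29.7) in liver and from 6.62 to 197 TPM (median 27.1) in lung, a difference of 0.36 (SE 0.41, adjusted p = 0.427) by limma. Sterol 12-alpha-hydroxylase (CP8B1), which directs synthesis to cholic acid, was low in all tissues, at 0 to 14.4 TPM (median 0.694) in liver with means of 0.628 to 2.29 TPM elsewhere. FGFR4, the liver receptor for the gut hormone FGF19, had 33.1 ± 6.37 TPM in liver and 64.5 ± 23.2 TPM in spleen, and its partner beta-klotho (KLOTB) was higher in liver than in each tissue at 6.66 ± 6.64 TPM (SD, n = 10).

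In glucose, glycogen and fructose metabolism, 10 of 18 genes were higher than in each tissue and all 18 were higher than in heart. Liver glycogen synthase (GYS2) ranged from 135 to 409.6 TPM (median 273) and the transporter GTR2, which lets glucose out of the cell, from 61.8 to 158 TPM (median 87.4). The glucagon receptor (GLR) ranged from 165 to 1235 TPM (median 298) and reached 71.3 TPM elsewhere. Glucose-6-phosphatase (G6PC1), the last step of glucose release, ranged from 63.9 to 1357 TPM (median 496) in liver and from 20.9 to 120.3 TPM (median 59.8) in kidney. Its difference from kidney was 2.84 (SE 0.33, adjusted p = 1.24e-10). Cytosolic phosphoenolpyruvate carboxykinase (PCKGC), which starts glucose synthesis from oxaloacetate, ranged from 188 to 1688 TPM (median 1293) in liver and from 344 to 2203 TPM (median 1060.4) in kidney, with overlapping libraries. The mitochondrial carboxykinase (PCKGM) was higher in liver than in kidney by 2.42 (SE 0.31, adjusted p = 2.68e-09).

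Fat oxidation was divided between liver and heart. Of 15 genes of ketogenesis and fat oxidation, 9 were higher in liver than in each tissue, and 3 (ACADV, ECHA and ECHB) were lower than in heart. The peroxisomal bifunctional enzyme (ECHP) ranged from 20.1 to 545 TPM (median 247) in liver. The mitochondrial trifunctional protein, ECHA and ECHB, had 130.5 ± 69.1 and 75 ± 31.4 TPM in liver and 306 ± 139 and 267 ± 153 TPM in heart (SD, n = 10). BDH, an enzyme of ketone body synthesis, had 166 ± 104 TPM in liver (SD, n = 10) and was higher than in each tissue. SCOT1, the enzyme that tissues need to burn ketones, was among the 10 leading genes lower in liver. Its livers ranged from 0.0967 to 1.35 TPM (median 0.375) and the other libraries from 9.32 to 124 TPM, and the difference nearest to 0 was -3.58 (SE 0.29, adjusted p = 9.78e-16), against lung.

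For sterol and fatty acid synthesis, 11 of 23 genes were higher in liver than in each tissue. Isopentenyl-diphosphate isomerase (IDI1) ranged from 299 to 3110.1 TPM (median 1337) in liver and from 60.1 to 159 TPM (median 109) in lung, and 7-dehydrocholesterol reductase (DHCR7) from 108 to 401 TPM (median 165) in liver. Lung was the tissue nearest to liver in this list, with a median difference of 1.14, against 3.30 for heart. HMG-CoA reductase (HMDH), the rate-limiting step of cholesterol synthesis, had 52 ± 42.1 TPM in liver and 51 ± 12 TPM in lung (SD, n = 10 each), with overlapping libraries. Fatty acid synthase (FAS) ran from 16 to 563 TPM (median 116) in liver and from 54.5 to 179 TPM (median 71) in lung. Acetyl-CoA carboxylase 1 (ACACA) was higher in liver than in each tissue, at 24.5 ± 9.76 TPM, and ACACB, which guards fat entry into mitochondria, was lower in liver than in heart, with a difference of -4.01 (SE 0.27, adjusted p = 1.59e-18).

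Enzymes that modify foreign compounds were high in liver, but many had a second tissue. Of 33 cytochrome P450 entries of families 1 to 4, 15 were higher in liver than in each tissue, as were all 6 UDP-glucuronosyltransferases and 10 of 28 other conjugating and detoxifying enzymes. Carboxylesterase 1 (EST1) ranged from 2712 to 8081 TPM (median 5689) in liver and from 346 to 2595 TPM (median 949) in kidney, and FMO1, a flavin monooxygenase, from 1634 to 6145 TPM (median 3108). Glycine N-acyltransferase (GLYAT), which joins benzoate to glycine, ranged from 821 to 4153 TPM (median 2199) in liver. In lung, CBR2, a carbonyl reductase, reached 12998 to 41706 TPM (median 16887) against 114 to 8543 TPM (median 3061) in liver, and CP2B4 reached 510.4 to 1623 TPM (median 899) against 43.4 to 437 TPM (median 279). FMO5 and epoxide hydrolase 1 (HYEP) were also higher in lung, with liver-minus-lung differences of -5.69 (SE 0.54, adjusted p = 1.96e-13) and -1.02 (SE 0.40, adjusted p = 0.0182). CP2J2, an arachidonic acid epoxygenase, and the quinone reductase NQO1 were lower in liver than in each tissue, at 0 to 4.01 TPM (median 1.01) and 3.57 to 10.4 TPM (median 5.87); the NQO1 call was lost after median-ratio scaling, with a nearest difference of -0.36. Entries within the CP2C and CP3A groups and the glucuronosyltransferases are near-identical to their relatives, so their separate levels are uncertain.

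Of 25 transcription factors listed for liver, 10 were higher than in each tissue. ATF5 ranged from 793 to 2291 TPM (median 953) and CREB3L3 (CR3L3), a membrane-bound factor of fasting, from 88.3 to 357 TPM (median 170.0). The bile acid receptor NR1H4, the drug sensors NR1I2 and NR1I3, NR5A2 and PROX1 were also higher than in each, with means of 121, 82.2, 56.1, 17.9 and 41.7 TPM. HNF4A, the main regulator of hepatocyte genes, was shared with kidney, at 98.2 to 179 TPM (median 119.9) in liver and 44 to 129.9 TPM (median 81.9) in kidney, a difference of 0.54 (SE 0.13, adjusted p = 0.000212) by limma. Against lung, FOXA1 was lower in liver, with a difference of -1.38, and FOXA2 had a difference of -0.95, which was not called. FOXA3 was higher in liver than in each tissue at 36.7 ± 12.6 TPM (SD, n = 10). GATA4, a factor of heart and liver development, had 18.4 ± 4.46 TPM in liver and 29.9 ± 7.84 TPM in heart.

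Entries higher in liver than in 3 tissues and not called higher than in the fourth were counted next, with TPM as deposited. Kidney led as the fourth tissue, with 234 such entries, beside 201 for lung, 63 for spleen and 61 for heart. Not all of these are shared, since entries lower in liver than in the fourth tissue count too, as with CBR2 against lung. The median difference over all genes was -0.53 against kidney and -0.94 against lung, but 0.05 against heart and -0.27 against spleen. The counts were not repeated after scaling. In the kidney group, the sulfotransferase ST2A1 ranged from 191 to 2536 TPM (median 403) in liver and from 319 to 2483 TPM (median 1549.5) in kidney, TTC36 from 328 to 578 TPM (median 526.4) and from 105.04 to 457 TPM (median 228), and hydroxyproline dehydrogenase (HYPDH) from 141 to 367 TPM (median 219.9) and from 283 to 721 TPM (median 404). The organic anion transporter SO2B1 led the spleen group, with 104 ± 35 TPM in liver and 122.7 ± 42.4 TPM in spleen (SD, n = 10 each). HPRT, the purine salvage enzyme, was also among the 5 leading there and had 279 ± 106 TPM in liver and 157 ± 38.2 TPM in spleen. Carbonic anhydrase 14 (CAH14) and the alpha-tubulin TBA8 led in the heart group, with CAH14 at 45.9 ± 17.3 TPM in liver and 33.6 ± 15.9 TPM in heart. Kidney was also nearest to liver over all tested genes, with a correlation of tissue means of 0.697, against 0.626 for heart, 0.624 for spleen and 0.599 for lung.

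Several enzymes came in a liver form and a form of other tissues. In all 10 livers the liver form was the higher of the pair for glycogen synthase (GYS2 over GYS1), pyruvate kinase (KPYR over KPYM), the glucose transporters (GTR2 over GTR1), methionine adenosyltransferase (METK1 over METK2), glutaminase (GLSL over GLSK) and fatty acid binding protein (FABPL over FABPH), and in 0 of 39 other libraries. KPYM, the pyruvate kinase of muscle and dividing cells, was among the 10 leading genes lower in liver. It ranged from 3.02 to 18.6 TPM (median 7.03) in liver and from 86.1 to 502 TPM elsewhere, and the difference nearest to 0 was -3.87 (SE 0.22, adjusted p = 1.73e-21). For arginase (ARGI1 over ARGI2) the liver form was the higher in 10 of 10 livers and 13 of 39 others. CPT1A was above CPT1B in 10 of 10 livers and in 29 of 39 others. Glucokinase (HXK4), the hexokinase of liver and of the insulin-releasing cells of the pancreas, was above HXK1 in 9 of 10 livers and 4 of 39 others. It was not called higher in liver than in lung, at 2.83 to 208 TPM (median 48.2) in liver and 32.3 to 96 TPM (median 58.8) in lung, a difference of -0.77 (SE 0.44, adjusted p = 0.103) by limma, and it was above HXK2 in 38 of 39 other libraries. Lactate dehydrogenase A exceeded B in 2 of 10 livers and 0 of 39 others. TPM is scaled per transcript length, so forms can be set side by side within a library.

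**Figure D4:**
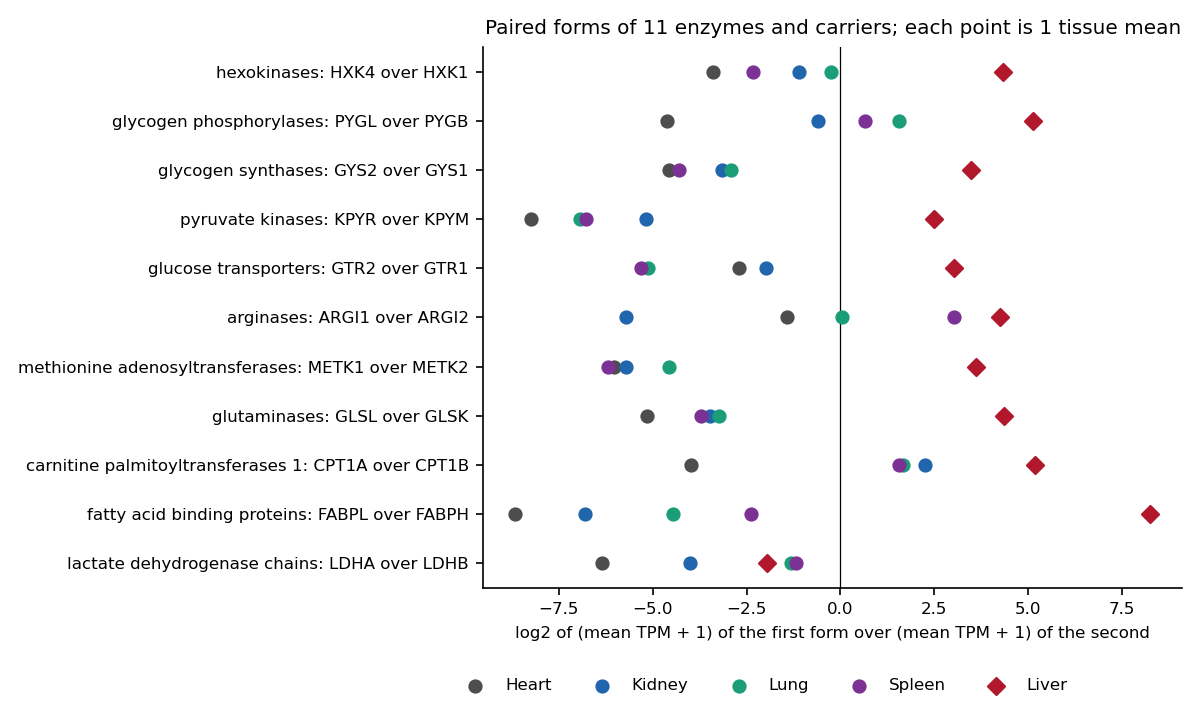
Each point is 1 tissue (diamonds for liver, circles for the others), plotted by the log2 ratio of (mean TPM + 1) of the first, liver form to (mean TPM + 1) of the second form. The liver lies right of 0, with more of the first form, in every pair but the lactate dehydrogenase chains, and for GYS2 over GYS1 the other 4 tissues lie left of 0.

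The 10 leading entries lower in liver, without overlap, had varied functions. They were decorin (PGS2), FABP5, the amyloid precursor protein (A4), GAS6, KPYM, angiotensin-converting enzyme (ACE), collagen XVIII (COFA1), the protease HTRA1, annexin A1 (ANXA1) and SCOT1. Decorin, which binds collagen fibrils, ranged from 0.808 to 13.9 TPM (median 3.8) in liver and from 42.9 to 1571 TPM elsewhere. A4 ranged from 3.54 to 43.9 TPM (median 9.75) in liver and from 100.7 to 418 TPM elsewhere, and ACE, the endothelial enzyme that makes angiotensin II, from 0.454 to 1.43 TPM (median 0.697) and from 11.3 to 259 TPM. The differences nearest to 0 were -4.55 (SE 0.44, adjusted p = 6.59e-13) for PGS2, -3.93 (SE 0.29, adjusted p = 1.76e-17) for A4 and -3.69 (SE 0.20, adjusted p = 1.19e-22) for ACE, all by limma. GAS6, a ligand of receptor kinases that take up dying cells, stayed at or under 1.97 TPM in every liver, and the lowest other library had 20.9 TPM.

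Of 20 genes of smooth muscle, matrix and cytoskeleton, 15 were lower in liver than in each tissue, against 5.15% of all genes, and 9 after median-ratio scaling. Osteonectin (SPRC) ranged from 6.64 to 35.8 TPM (median 15.1) in liver and from 60.8 to 677 TPM elsewhere, and vimentin (VIME), the filament of connective tissue cells, from 12.6 to 72.9 TPM (median 28.3) and from 112 to 1330.5 TPM. The exception was fibronectin (FINC), which hepatocytes release into plasma: it ranged from 184 to 893 TPM (median 595) in liver and reached 138 TPM elsewhere, with a nearest difference of 3.12 (SE 0.31, adjusted p = 1.34e-12) by limma. Of the 79 cytosolic ribosomal proteins, 4 were lower in liver than in each tissue (5.06%), a share near the 5.15% of all genes. Lower than in lung were 67, against 47.4% of all genes, and lower than in spleen 52, against 23.6%, with median differences of -1.30 and -1.10 beside -0.94 and -0.27 over all genes. RS20 ranged from 185 to 585 TPM (median 353) in liver and RL39 from 410.4 to 704 TPM (median 570.2). None of the 4 calls held after median-ratio scaling. RL36 then turned to a nearest difference of 0.08, and RS20, RL13A and RL39 stayed below 0 at -0.67, -0.39 and -0.11. After quantile normalisation 21 of the list were lower than in each tissue, so the number called depends on the scaling.

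Of the 9 genes of the mitochondrial genome, 9 were lower in liver than in heart (14% of all genes) and 7 than in kidney (30.8%). Higher than in spleen were 7 of 9 (11.8% of all genes). The share of all 9 in TPM was 10.03% ± 5.89 in liver (SD, n = 10, median 8.28%), 37.4% in heart, 28.3% in kidney, 6.44% in lung and 3.63% in spleen. The differences of -27.3 points from heart, -18.2 from kidney and 6.4 from spleen passed the permutation test (adjusted p = 3.25e-05, 0.000928 and 6e-05), and that of 3.59 from lung did not (adjusted p = 0.146). With the animal as a replicate block, the difference from lung passed (permutation test, adjusted p = 0.0443). The liver of S0326 had 26.4%, and the other 9 had 6.58% to 10.3%.

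Markers of the other tissues were mostly lower in liver than in their own tissue, but not always low beside the remaining tissues. All 19 heart muscle genes were lower in liver than in heart, 15 of 16 kidney genes lower than in kidney, 16 of 16 lung genes lower than in lung and 18 of 18 lymphocyte genes lower than in spleen. Over all genes, 14% were lower than in heart, 30.8% than in kidney, 47.4% than in lung and 23.6% than in spleen. Atrial natriuretic factor (ANF) was 0 in all 10 livers, and the ventricular myosin light chain (MLRV) reached 1.5 TPM in liver against 11458 to 51624 TPM (median 43791) in heart. Summed levels in liver were 11.2 to 37.7 TPM for heart muscle, 8.74 to 27.6 TPM for lymphocytes and 20.5 to 827 TPM for red cells. The red cell median was 189 TPM in liver, 134 in heart, 73.2 in kidney and 108 in lung. The lung list summed to 161 to 345 TPM in liver (median 250), against medians of 22.1 in heart, 73.4 in kidney and 55.7 in spleen. Of its 16 genes, 4 were higher in liver than in heart, 4 than in kidney and 4 than in spleen (15.9%, 8.17% and 11.8% of all genes). The kidney list summed to 6.35 to 1764 TPM in liver (median 469), beside medians of 354 in heart, 689 in lung and 84.1 in spleen. Within it, the salt transporter S12A3 had 0.0762 to 1749 TPM (median 456) in liver, nearly all of it from 1 of its 3 assembled transcripts, of 2292 bases, and the other 2 stayed at or under 0.108 TPM.

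Markers of the remaining liver cells gave a mixed picture. Of 10 Kupffer cell and macrophage genes, CD5L and CD14 were higher in liver than in each tissue. CD5L, a macrophage protein secreted into plasma, ranged from 279 to 917 TPM (median 585) in liver and from 57.1 to 408 TPM (median 175) in spleen, and CD14, which hepatocytes also make, from 174 to 362 TPM (median 288) in liver. The other 8 were not, and 5 of the 10 were lower than in spleen, against 23.6% of all genes. Among those 5 was C163A, at 26.5 ± 23.2 TPM against 583 ± 343 TPM (SD, n = 10 each). Of 6 sinusoidal endothelial genes, the lectin CLC4G and the Wnt enhancer RSPO3 were higher than in each tissue, with CLC4G at 32 to 179 TPM (median 86.2) in liver and 1.87 to 96.7 TPM (median 16.3) in spleen. Of the same 6, which are the tested part of 12 listed, 1 was lower in liver than in heart, 1 than in lung and 2 than in spleen. Over all genes those shares were 14%, 47.4% and 23.6%. Where a mean of at least 5 TPM was required, 1 of the list was higher than in each tissue. Of 16 stellate cell and fibroblast genes, 3 were higher in liver than in each tissue: reelin (RELN) and the collectins COL10 and COL11, with RELN at 14.4 to 43 TPM (median 24.4). None of the 3 is a collagen. Another 7 were lower than in each, 5 after median-ratio scaling, among them the collagen chains CO1A1 and CO1A2 and lumican (LUM), at means of 1.77, 6.62 and 1.02 TPM. The list summed to 103 to 350.3 TPM in liver and to 1439 to 4382 TPM in spleen. Of 10 bile duct genes none was higher than in each tissue. K2C8 and K1C18, keratins that hepatocytes share, had 431 ± 260.4 and 290.2 ± 178 TPM, and the duct keratin K1C19 had 0.468 to 79.6 TPM (median 7.73) with its highest value in S0326.

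The livers also differed among themselves. Over 929 entries with a liver mean of at least 100 TPM, the median SD of log2(TPM + 1) was 0.45, and 83 entries (8.93%) had an SD of at least 1. By list, the mean log2 level of the sinusoidal endothelial genes varied most among the livers, with an SD of 1.27, and the P450 list had 0.34. Among the 10 most variable of these entries were CP2E1, CP1A2, DHB13 and CBR2, enzymes of drug and lipid metabolism. CP2E1, the ethanol-oxidising P450, had 0.441, 99.1, 15.7, 0.46 and 8.66 TPM in the ET-type livers S0235 to S0326, and 1987, 15.9, 2439, 175 and 1500.4 TPM in the L-type livers S0349 to S0385. CP1A2, the caffeine-oxidising P450, ranged from 2.91 to 1495 TPM (median 51), and the lipid droplet enzyme DHB13 from 5.14 to 511 TPM (median 50.1). In all 3, S0349, S0377 and S0385 were the highest livers. CBR2 and glucokinase were lowest in those 3, with CBR2 at 114, 116 and 233 TPM against 2563 to 8543 TPM in the other 7, and HXK4 at 2.83, 6.22 and 4.46 TPM against 20.6 to 208 TPM.

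Among other variable genes, apolipoprotein A-IV (APOA4) ranged from 14.1 to 2475 TPM (median 68.1) with its highest values in S0355 and S0384, and the glycerol channel AQP9 from 6.52 to 333 TPM (median 139) with S0276, S0326 and S0355 low. HP252, a relative of the hibernation proteins of squirrels, had 3.76 and 2.95 TPM in S0309 and S0377, and 68.8 to 339.6 TPM in the other 8. Cytochrome b (CYB) ranged from 8.5 to 27638 TPM (median 2455), mostly through 1 assembled transcript of 511 bases. Transcript length moved with some of these livers: relative to the mean of the 10, the 826 transcripts shorter than 500 bases had a median deviation of -0.83 log2 units in S0309 and 0.61 in S0326, and the 3106 of at least 4000 bases 0.21 and -0.33. S0276 followed with 0.48 for the short transcripts and S0385 with 0.19 for the long ones. The part of length in these differences was not tested.

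**Figure D5:**
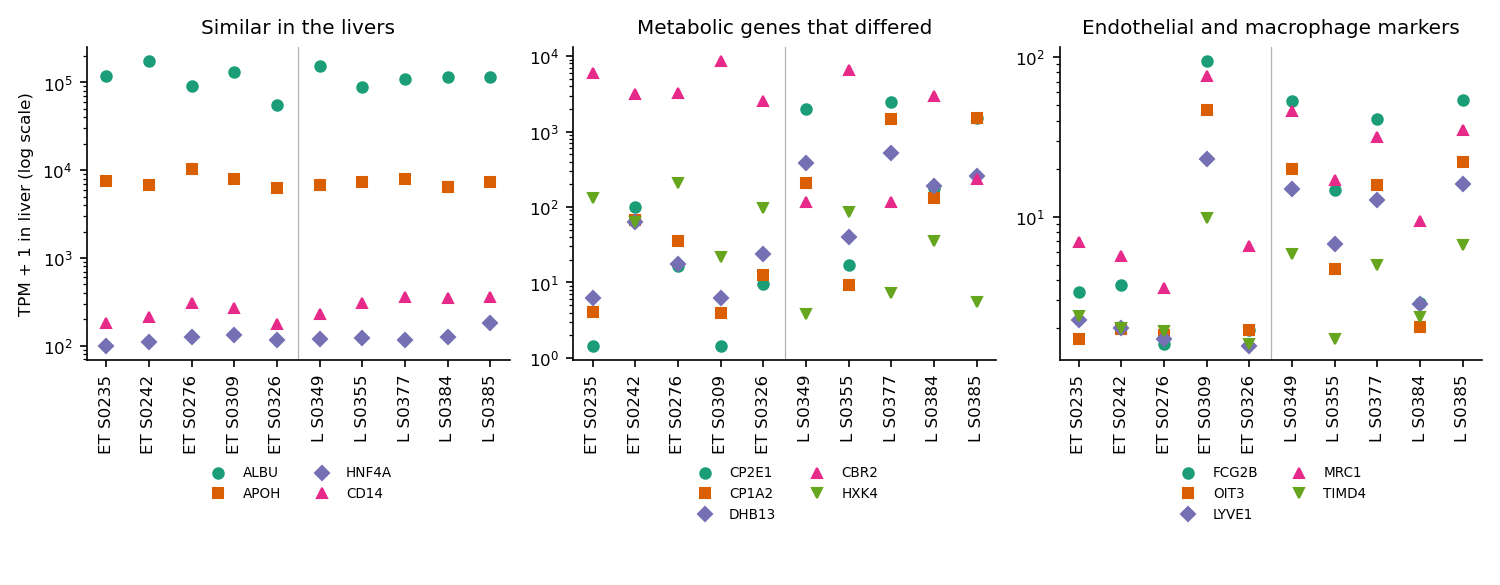
Each point is 1 liver, with the 10 animals along the horizontal axis (ET-type left of the grey line, L-type right) and TPM + 1 on a log scale on the vertical axis, for genes of similar level in the livers (left), metabolic genes that differed (middle) and endothelial and macrophage markers (right). CP2E1 is highest in S0377 (2439 TPM), S0349 and S0385 and lowest in S0235 (0.441 TPM) and S0309 (0.46 TPM).

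What sets liver apart was then compared between the types, as the difference of liver from the mean of the other 4 tissues in ET-type minus the same in L-type. It differed in 244 of 29725 genes (0.821%) by limma at an adjusted p below 0.05, of which 150 (0.505%) were larger in ET-type and 94 (0.316%) smaller. This balance depended on the scaling, with 179 larger and 170 smaller after median-ratio scaling and 113 and 127 after quantile normalisation, and on 1 animal, with 68 and 71 without S0349. At an unadjusted p below 0.05 there were 2830 (9.52%). The 5 liver markers did not differ, with adjusted p-values of at least 0.555. The count moved with single animals: it was 116 without S0235, 136 without S0377, 139 without S0349, 150 without S0385 and 498 without S0309. Without the livers of S0309 and S0326 it was 344, with 220 larger in ET-type and 124 smaller.

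PLAT5, a phospholipase and acyltransferase, had 33.8 to 80.5 TPM in the ET-type livers and 5.13 to 25.3 TPM in the L-type livers, which did not overlap, and the difference was 2.03 (SE 0.21, adjusted p = 1.69e-08). ANGL8, which insulin raises and which inhibits lipoprotein lipase through ANGL3, had 6.8 to 112 TPM and 4.48 to 19.7 TPM, overlapping through S0309, and a difference of 2.75 (SE 0.39, adjusted p = 2.47e-05). MORC4, an ATPase of the MORC family, had 24.8 to 47.3 TPM in ET-type livers and 6.64 to 16.1 TPM in L-type livers. The acyltransferase GLYL2 had 5.85 to 20.1 TPM and 0.488 to 6.16 TPM, and the growth factor-binding protein CRIM1 8.82 to 33.2 TPM and 0.896 to 10.6 TPM.

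In the other direction, the serpin SPA11 had 30.6 to 48.8 TPM in ET-type and 73.9 to 126 TPM in L-type livers, without overlap, and a difference of -1.38 (SE 0.13, adjusted p = 4.56e-09). Carboxypeptidase N subunit 2 (CPN2), which stabilises the enzyme that inactivates anaphylatoxins, had 52.2 to 63.7 TPM and 88.5 to 134 TPM, again without overlap. Apolipoprotein A-V (APOA5), which speeds the clearance of triglycerides, had 19.4 to 154 TPM and 129 to 577 TPM, with a difference of -2.31 (SE 0.33, adjusted p = 2.47e-05). DHB13 had 5.14 to 61.6 TPM and 38.5 to 511 TPM, and PRR29 0.527 to 1.42 TPM and 3.13 to 14.1 TPM. CP2E1 differed by -5.77 (SE 0.87, adjusted p = 6.21e-05) and CP1A2 by -4.72 (SE 0.89, adjusted p = 0.00182). Both differences kept their call without each animal in turn, but that never removes all of S0349, S0377 and S0385, the highest livers for both genes. For CP2E1, L-type S0355 at 15.9 TPM lay below ET-type S0242 at 99.1 TPM. Whether the differences belong to the type or to those livers was not tested. By list, sterol and fatty acid synthesis had 5 of 23 genes larger in ET-type (HMDH, IDI1, FDFT, FAS and PLPL3) and 2 smaller (ELOV6 and FADS1), against 0.505% and 0.316% of all genes. IDI1 had 1239.8 to 3110.1 TPM and 299 to 1641 TPM in ET-type and L-type livers, with a difference of 1.76 (SE 0.34, adjusted p = 0.00293). IDI1 was called without each animal in turn. FAS had 30.2 to 563 TPM and 16 to 183 TPM and was not called without S0326 or S0349 (adjusted p = 0.0649 and 0.0543). The other 5 also lost their call without at least 1 animal, ELOV6 for example with an adjusted p of 0.272 without S0235. Without the livers of S0309 and S0326, HMDH, FDFT, FAS, FADS1 and PLPL3 were not called.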

How the data were processed

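Libraries were made from total RNA (TRIzol) of heart, kidney, liver, lung and spleen with a TruSeq Stranded mRNA LT kit, per the labels' protocols. The submitters' processing notes name Trimmomatic 0.36, Salmon 1.10.0 and the pig assembly Sscrofa11.1, with no order or role. The authors deposited TPM for 57085 assembled transcripts, with sums of 1e+06 per library. A deposited annotation gives 36484 of them (63.9%) a Swiss-Prot entry, at a median identity of 91.7%. How the annotation was made is not given in the sources used here. TPM keeps no read number, so depth and counting error are unknown.

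Here TPM was summed per entry name over species (14532 entries), and transcripts without an entry were kept as they are, 35133 genes in all. Sums mix near-identical relatives. limma 3.58.1 (R 4.3.3, lmFit and eBayes with trend) was fitted to log2(TPM + 1) with 1 mean per tissue over 49 libraries, for genes averaging 1 TPM or more, and adjusted by Benjamini-Hochberg over all genes of each contrast. The type contrast used 1 mean per tissue and type. Library measures were compared by two-sided permutation tests, exact against kidney and otherwise with 100000 resamples (smallest p 1e-05), adjusted over 12 comparisons. Tables and figures were made in Python 3.11.15 with pandas 2.3.3, numpy 2.4.6 and matplotlib 3.10.9. In simulated data for 29725 genes, the calls against each tissue, higher and lower together, recovered 93% of genes changed by 1.5 log2 units. They recovered 100% of those changed by 3. The type contrast recovered 28% of genes changed by 1 and 96% of those changed by 3, with 7 false calls. Changed genes were drawn only from the better expressed ones. The simulation held no other difference between tissues and no effect of the animal. Recovery of low genes is therefore not known.

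Same-numbered libraries come from the same animal. Deviations of a liver from its tissue mean correlated with those of the same animal's other tissues at a mean r of 0.228 (39 pairs, 36 above 0.1), and at -0.0573 with other animals of the same type. The animal was therefore tried as a block.

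Members and lists were chosen with earlier results of these data known. The 28 lists held 605 names, of which 556 matched and 553 were tested. The filter for ribosomal protein names was widened after the files were read, since as first written it matched 3. Named genes were the given markers, the 10 highest in liver, and the 10 of each direction with the largest nearest difference and no overlap. For each tissue, the 5 leading entries higher in liver than in the others but not called higher than in it were added. Each list gave the 2 to 4 leading members and those going against the rest. Last came the 10 most variable liver genes at 100 TPM or more and the 5 smallest p per direction by type. Alternatives changed the pseudocount, filter, scaling, gene unit, threshold, block and animals. Some genes that this rule names are not reported here. No sequences were used here.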

Additional observations from a re-analysis of the deposited data

Results flagged for a closer look

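In 10 genes and 1 library measure, 1 liver lay further from the other 9 than a test for single outlying values allows, out of 67 genes and 3 measures checked. By chance the test sets apart about 1 group in 20, but that rate does not hold for this set. Some of the genes, CYB and AOXA among them, were picked for their spread over these same livers. Genes of 1 library can also move together. Of the 10 genes, 7 were set apart in ET-type S0326. There, FIBB had 5095 TPM (12324 to 25918 in the others), FIBA 2301 TPM (5617 to 10955), TRFE 2582 TPM (5989 to 15603), SPA38 633 TPM (3141 to 12776) and IPSP 543 TPM (1262 to 2084), all low. COX1 with 101194 TPM (27483 to 50629) and NU5M with 23210.1 TPM (4416 to 8263) were high there, as was the mitochondrial share of 26.4% (6.58% to 10.3% in the others). The shares of a library sum to a constant, so a high mitochondrial share and low plasma protein shares cannot be told apart as separate changes. APOH was high in S0276 at 10190.1 TPM (6257 to 7928). CYB was low in S0309 at 8.5 TPM (1834 to 27638), and the aldehyde oxidase AOXA was low in S0235 at 0.835 TPM (45.4 to 329).

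The 10 genes given next are the entries with the 5 smallest p in each direction by type, out of 244 genes called. In each, the difference of liver from the other 4 tissues differed between the types by limma, ET-type minus L-type. It was 2.03 with an adjusted p of 1.69e-08 for PLAT5, 1.84 with an adjusted p of 1.29e-06 for MORC4, 2.75 with an adjusted p of 2.47e-05 for ANGL8, 2.12 with an adjusted p of 3.65e-05 for GLYL2 and 2.91 with an adjusted p of 5.83e-05 for CRIM1. It was -1.38 with an adjusted p of 4.56e-09 for SPA11, -0.96 with an adjusted p of 1.22e-06 for CPN2, -3.58 with an adjusted p of 2.11e-05 for DHB13, -2.31 with an adjusted p of 2.47e-05 for APOA5 and -1.91 with an adjusted p of 3e-05 for PRR29. For all 10, the call held without each animal in turn, a result that picking genes by their p in all animals favours. With a pseudocount of 0.1 the CPN2 difference was -0.87 with an adjusted p of 0.073.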

How the results depend on the processing

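Counts are given as higher and lower in liver. A mean of at least 5 TPM left 880 higher than each tissue, with 3091 and 2615 for heart, 1487 and 4918 for kidney, 1472 and 7556 for lung, 2120 and 4472 for spleen. Entries alone gave 730 higher than each, with 2531 and 2516 for heart, 1293 and 3848 for kidney, 1250 and 6828 for lung, 1755 and 4259 for spleen; transcripts gave 2451 higher than each and 7253 for heart, 4048 for kidney, 3843 for lung, 5731 for spleen. These 3 test other numbers of genes. Adjusted p alone gave 3959 lower than each, with 8122 and 7150 for heart, 3864 and 15381 for kidney, 5381 and 11940 for spleen. A log2 difference of at least 2 gave 769 and 305 for each, with 2275 and 1785 for heart, 1195 and 3128 for kidney, 1332 and 5223 for lung, 1913 and 2918 for spleen. Median-ratio scaling gave 2194 higher than each, with 3959 and 5995 for kidney, 4496 and 6209 for lung. Quantile normalisation gave 846 lower than each, with 4281 and 5031 for kidney, 4660 and 5451 for lung. A pseudocount of 0.1 gave 3310 lower than each and 160 genes by type. For scaling and pseudocount, the cause was not tested. RL36 changed sign after median-ratio scaling, to 0.077.

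With the animal as a replicate block, 1445 genes were higher and 1555 lower than each tissue, 1436 and 1527 of them shared with the counts without it, and 348 differed by type; the one call it changed among the other answers was the mitochondrial share of liver minus lung, 3.59 points. Leaving out 1 animal at a time gave 1389 to 1468 higher and 1477 to 1581 lower than each, 4626 to 5030 and 4038 to 4305 for heart, 2353 to 2503 and 8806 to 9707 for kidney, 2287 to 2391 and 13746 to 14545 for lung, 3374 to 3638 and 6714 to 7432 for spleen, and 116 to 498 by type. The mitochondrial share of liver minus lung ranged from 2.33 to 4.52 points and passed without S0276. Without 1 animal or more, DHC24, HMCS1 and CP4F2 lost the call higher than each, and CO3A1, DESM, RL13A and RL36 the call lower than each. Depth is unknown, so low values carry an error that these tests see only through the spread between animals.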

Other observations

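Endothelial genes and several macrophage genes moved together among the livers, in a set chosen after its values were seen. VEGF receptor 2 (VGFR2) had 42.7, 27.8, 18.2 and 13.1 TPM in S0309, S0349, S0385 and S0377 and 0.854 to 6.13 TPM in the other 6. VE-cadherin (CADH5), the junction protein of endothelium, had 7.07 to 23.2 TPM in those 4 and 0.726 to 2.04 TPM in the others, and the angiopoietin receptor TIE2 5.26 to 17.1 TPM and 1.07 to 3.61 TPM. Of the listed sinusoidal genes, the scavenging Fc receptor FCG2B had 39.9 to 93.1 TPM in the 4 livers and 0.593 to 13.7 TPM in the others, and OIT3 14.8 to 45.4 TPM and 0.712 to 3.69 TPM. In 5 of the 6 sinusoidal genes and 6 of the 10 Kupffer cell and macrophage genes, these 4 livers lay above the other 6, as they did in 9.49% of all tested entries; the livers were picked by their VGFR2 level. The scavenger receptor C163A had 27.3 to 70.3 TPM and 7.25 to 15.4 TPM, and MRC1, the mannose receptor, 30.4 to 75 TPM and 2.56 to 15.9 TPM. CD5L overlapped, with 601 to 917 TPM in the 4 and 279 to 701 TPM in the others, and MARCO, another scavenger receptor of macrophages, ran lower in the 4, at 3 to 25.4 TPM against 24.2 to 88.2 TPM. These 4 livers come from both types. Transcripts shorter than 500 bases had median deviations of -0.83 in S0309, -0.21 in S0349, -0.02 in S0377 and 0.11 in S0385, in log2 units. Those of at least 4000 bases had 0.21, 0.12, -0.005 and 0.19 in the same order. The part of transcript length in the pattern was not tested. The endothelial genes PECA1 and VWF were also looked at and are not reported here.

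A sulfotransferase of phenols (ST1A1) had 198 and 179.8 TPM in the livers of S0377 and S0385 and at most 12.9 TPM in the other 8. FMO5 had 151 and 146 TPM there and at most 39.7 TPM elsewhere, and ACMSD 64.9 and 109 TPM and at most 21.1 TPM. Vitronectin (VTNC), an adhesive plasma protein, had 247 TPM in S0242 and 4215 to 10703 TPM in the other 9. Of 16081 tested transcripts without a Swiss-Prot entry, 709 were higher in liver than in each tissue and 445 were lower. Over all genes tested, the shares were 4.84% and 5.15%. What these transcripts encode is not known here.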
